A study of Rattus norvegicus with 40 samples.

Results

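The amygdala and the anterior cortex of sham-exposed rats were compared gene by gene in bulk RNA sequencing data. The libraries were chosen by their labels alone: the 5 amygdala and the 5 anterior cortex libraries whose treatment label is sham-exposed, 10 of the 40 libraries of the series. The tissue was taken 12 months after the sham procedure, and the other libraries of the study come from the same brain regions, the hippocampus and the cerebellum, with blast-exposed rats beside the sham-exposed ones. The sources used here do not give strain, sex, age at exposure or the way the regions were dissected. All genes listed in the tables of both regions were taken, 22325 of the 23783 in the amygdala table and of the 23366 in the cortex table, and 15030 of them had enough counts to be tested.

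The amygdala is a group of nuclei in the temporal lobe that attaches fear, reward and social meaning to sensory input. Its basolateral nuclei are built from glutamatergic projection neurons related to those of the cortex, while its central and medial nuclei derive largely from subpallial and hypothalamic precursors, are rich in GABAergic and peptidergic neurons, and carry receptors for peptides and sex steroids. The anterior cortex is a layered sheet of glutamatergic projection neurons and interneurons, with myelinated axons in its deep layers and in the white matter below. In pieces of whole tissue such as these, fewer cells of a type and less RNA per cell cannot be told apart, and a dissected piece can carry a neighbouring structure.

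The amygdala libraries held 12653267 to 16433786 counts and the cortex libraries 11268097 to 14973206. Amygdala libraries are named here 11, 14, 15 and 33 after the number in their titles, and the fifth is called the unnumbered library because its column and its title bear different numbers. Cortex libraries are 11, 13, 14, 15 and 33. No label ties a number to a rat, and p-values thus measure only the spread between these samples, which may be technical. Cortex libraries 11, 13 and 15 stood apart before any test: they held counts for 17621, 17845 and 17510 genes, against 19295 in cortex 14, 18744 in cortex 33 and 18950 to 19509 in the amygdala. On the first principal component, which took 43.33% of the variance, these 3 libraries lay at 50.1, 40.5 and 77.31, cortex 14 and 33 at -3.71 and -4.21, and the amygdala libraries at -40.94 to -21.19. Their genes of the respiratory chain were lower and those of the postsynaptic density higher than in cortex 14 and 33. The rank correlation across genes between gene length and the fold change of amygdala over cortex was -0.268 over all 10 libraries and 0.002 without the 3 libraries. Counts and values are therefore also given without cortex 11, 13 and 15, that is for 5 amygdala libraries against cortex 14 and 33.

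Per-library values below are counts relative to the TMM-scaled library total, in the unit CPM, in the order 11, 14, 15, 33 and unnumbered for the amygdala and 11, 13, 14, 15 and 33 for the cortex. Group levels are mean CPM ± SD with n = 5 per region. Fold changes are log2 of amygdala over anterior cortex ± SE from edgeR, so a positive value means a higher level in the amygdala, and p-values are adjusted by Benjamini-Hochberg over the 15030 genes. A gene is said to be higher in a region only where its adjusted p was under 0.05. The common coefficient of variation between libraries was 14% in the amygdala and 27% in the cortex. The fit took the spread of a gene as equal in both regions. Gene positions are as the tables give them, with a genome build not given in the sources used here.

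The defining markers of the labelled tissues gave a mixed picture. The cortical progenitor factor Emx1 (-0.54 ± 0.19, adjusted p = 0.067), the layer 5 factor Fezf2 (0.27 ± 0.25, adjusted p = 0.476) and Slc17a7, the vesicular glutamate transporter of cortical and basolateral neurons (0.20 ± 0.14, adjusted p = 0.339), did not pass the test, though Emx1 was called without cortex 11, 13 and 15 (-0.61, adjusted p = 0.0295). On the amygdala side Tac3, which codes for neurokinin B, was higher in the amygdala (1.57 ± 0.39, adjusted p = 0.0165), while Prkcd, a kinase of the lateral central nucleus, stood at 18.3 ± 1.75 CPM in the amygdala and 18.01 ± 5.37 CPM in the cortex. Sim1, a factor of the medial amygdala and hypothalamus, fell below the count filter, with 17, 34, 38, 11 and 14 counts in the amygdala libraries and 0 in all 5 cortex libraries. With 3 counts over the cortex group put in place of 0, the ratio of amygdala to cortex, relative to total counts, was 34.4. Sim1 was not tested and is therefore not said to be higher in a region. The medial amygdala factor Lhx5 had 12 counts over the amygdala and 10 over the cortex libraries. Striatal markers were not higher in the amygdala but in the anterior cortex: the adenosine receptor gene Adora2a at -1.53 ± 0.24 and the dopamine receptor gene Drd2 at -1.33 ± 0.39.

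Of the 15030 genes, 2455 passed the test, or 16.3%: 919 were higher in the amygdala (6.11%) and 1536 higher in the anterior cortex (10.2%). The called differences were mostly moderate, with a median size of 0.76 on the log2 scale. A change of at least 1 was measured for 327 genes higher in the amygdala (2.18%) and 423 higher in the cortex (2.81%), and 115 genes reached 2. The libraries of the regions did not overlap for 879 genes with higher amygdala values (5.85%) and 1088 with higher cortex values (7.24%). Without cortex 11, 13 and 15 the count was 1491, with 708 higher in the amygdala (4.51%) and 783 in the cortex (4.98%). All 919 genes higher in the amygdala kept their direction there and 467 kept their call; of the 1536 higher in the cortex 1532 kept their direction and 590 their call. Leaving out 1 library at a time gave 1361 calls without amygdala 11, 1462 without amygdala 15, 1549 without the unnumbered amygdala library and 3906 without cortex 14, the 4 libraries that moved the count by over 1.5 times. Of the 177 genes named here as higher in a region 140 kept their call in all 10 of these fits, and the smallest adjusted p of a call that ended was 0.0165. The 37 calls that ended in at least 1 of them were those of Adra1d, Avp, Camk2a, Cdh9, Crhr1, Crhr2, Cyp19a1, Drd2, Enpp6, Esr1, Gabrb2, Gabrg3, Htr1f, Htr5b, Kiss1r, Mchr1, Ndufb10, Nts, Oprd1, Oxtr, Parm1, Pgr, Ptgds, Pvalb, Rora, Rxfp3, Shank1, Shisa6, Six3, Slc17a6, Slc18a3, Sox10, Sstr1, Tac3, Th, Zic1 and Zic2, all described below. Upper quartile scaling called 2333 genes and moved the share higher in the amygdala from 37.4% to 43.7%. Counts of called list members below are to be read beside 6.11% of all genes for the amygdala and 10.2% for the cortex. Without cortex 11, 13 and 15 these shares were 4.51% and 4.98%.

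Among genes higher in the amygdala, the smallest p belonged to Nr2f2 (chromosome 1, 131448447 to 131460473), which codes for COUP-TFII, a nuclear receptor of caudal forebrain and amygdala precursors. It measured 65.4, 82.8, 78.5, 85.1 and 75.7 CPM in the amygdala against 10.5, 10.7, 11.9, 7.67 and 13.1 CPM in the cortex. The regions were far from overlapping, and the fold change was 2.84 ± 0.14 (adjusted p = 3.07e-07). Plagl1 (chromosome 1, 7252349 to 7259035), an imprinted zinc finger gene that restrains growth, had 17.2, 22.1, 23.1, 24.3 and 23.98 CPM in the amygdala and 3.48, 2.79, 3.55, 1.70 and 2.79 CPM in the cortex (2.94 ± 0.20, adjusted p = 4.19e-06). Its lowest amygdala library, 11, still lay above every cortex library. Hpcal1, a neuronal calcium sensor, measured 159, 169, 131, 132 and 132 CPM in the amygdala and 23.02, 25.1, 35.7, 33.1 and 29.7 CPM in the cortex (2.30 ± 0.14, adjusted p = 1.45e-06). Slc6a5, the glycine transporter of glycinergic terminals, had 8.22, 9.37, 7.51, 9.77 and 7.92 CPM in the amygdala and 1.45, 0.676, 1.03, 0.852 and 1.56 CPM in the cortex (2.93 ± 0.25, adjusted p = 2.58e-05), low in both regions but without overlap. The others of the 12 leading amygdala genes were the GTPase activator gene Arhgap6 (1.71), Lypd1, a modulator of nicotinic receptors (1.55), the ephrin gene Efnb3 (1.41), the sodium-proton exchanger gene Slc9a2 (2.04), the basic helix-loop-helix factor Bhlhe22 (1.65), Hap1, the huntingtin-associated protein of limbic and hypothalamic neurons (1.54), Tmem150c, a transmembrane protein gene (1.24), and Rsph9, a radial spoke protein of motile cilia (1.54).

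Among genes higher in the anterior cortex, Stac2 (chromosome 10, 85988367 to 86004209), an adaptor of voltage-gated calcium channels, measured 26.4, 29.5, 27.4, 29.8 and 26.8 CPM in the amygdala and 148, 165, 169.7, 131 and 172 CPM in the cortex (-2.49 ± 0.11, adjusted p = 7.95e-08). Scn4b (chromosome 8, 49441106 to 49456279), the sodium channel subunit linked to fast and resurgent current, measured 16.1, 10.8, 10.9, 10.2 and 12.6 CPM in the amygdala and 108, 95.9, 88.9, 86.8 and 75.01 CPM in the cortex (-2.91 ± 0.15, adjusted p = 3.07e-07). In both genes the lowest cortex library was more than 4 times the highest amygdala library. Cdhr1, a cadherin-related protein best known from photoreceptors and mitral cells of the olfactory bulb, had 8.29, 11.5, 8.72, 7.13 and 11.1 CPM in the amygdala and 78.5, 93.8, 63.4, 74.1 and 94.5 CPM in the cortex (-3.11 ± 0.17, adjusted p = 3.74e-07). Trdn, which codes for triadin of the calcium release complex, stood at 0.808 ± 0.161 CPM in the amygdala and 10.4 ± 3.49 CPM in the cortex (-3.68 ± 0.28, adjusted p = 1.05e-05). The rest were the semaphorin gene Sema7a (-1.41), the Purkinje cell protein relative Pcp4l1 (-2.46), the phospholipase gene Plcb4 (-1.49), the copine gene Cpne9 (-1.49), Rasd2, the small GTPase Rhes of striatal and cortical neurons (-1.62), the neuronal repressor Scrt1 (-1.48), the guidance receptor gene Robo3 (-2.77) and the synaptotagmin gene Syt6 (-1.77). All 24 genes were also called without cortex 11, 13 and 15.

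**Figure D1:**
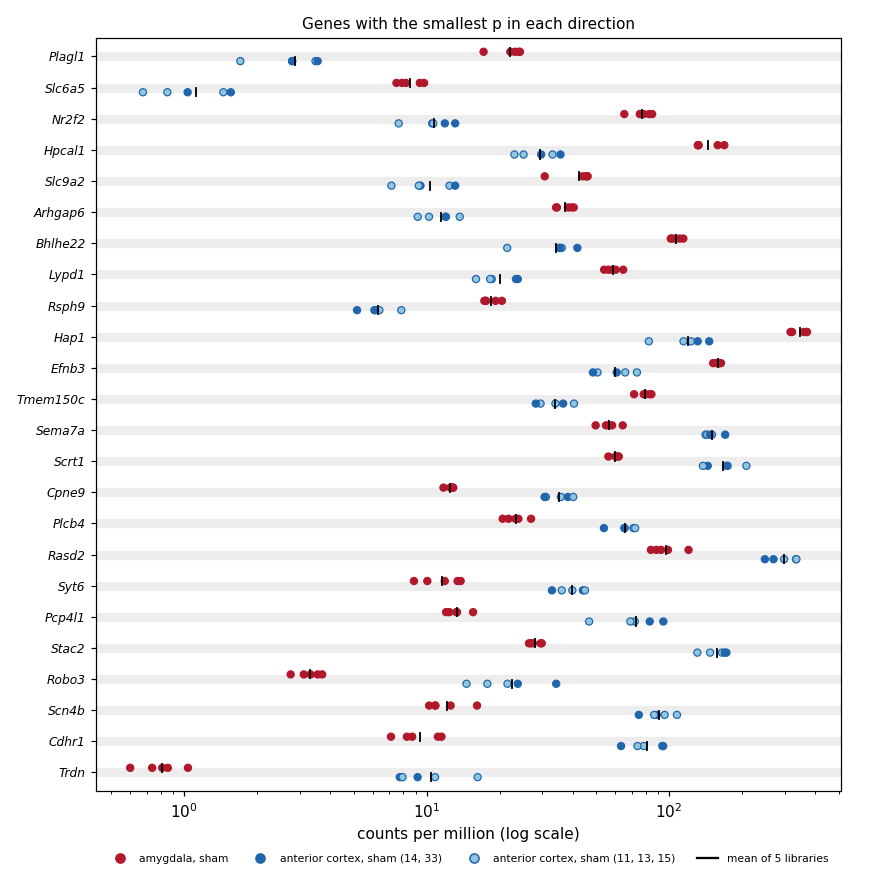
CPM on a log axis in each of the 10 sham libraries for the 12 genes with the smallest p in each direction among those with a log2 fold change of at least 1 and no overlap between regions; black ticks are means of 5 libraries. The 5 red amygdala points lie on one side of the 5 blue cortex points for every gene, from Plagl1 at the top (2.94) to Trdn at the bottom (-3.68).

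Transcription factors separated the regions in both directions. Of 36 factors of the pallium tested, 3 were higher in the amygdala and 14 in the cortex, against 6.11% and 10.2% of all genes. Their median was -0.27 beside -0.004 over all genes. Higher in the cortex were, among others, the upper layer factors Cux1 (-1.45) and Cux2 (-0.95), the POU factors Pou3f2 (-0.97) and Pou3f3 (-0.63), and the deep layer factor Tbr1, at 44.3 ± 6.46 CPM in the amygdala and 75.2 ± 6.80 CPM in the cortex (-0.76 ± 0.12). The 3 higher in the amygdala were Bhlhe22, the granule neuron factor Neurod1 (1.38) and Nr4a2, an orphan receptor of claustrum and subplate neurons (0.72). Without the 3 cortex libraries the cortex calls of this list numbered 11. Of 35 subpallial and diencephalic factors, 5 were higher in the amygdala and 10 in the cortex (median -0.38). Lhx9, a LIM factor of the amygdala and thalamus, measured 1.78, 1.25, 1.94, 2.70 and 2.14 CPM in the amygdala and 0, 0.0845, 0.194, 0.379 and 0 CPM in the cortex, where 2 libraries had no count (3.81 ± 0.61, adjusted p = 0.00149). Barhl2, a factor of diencephalic neurons (3.02), was likewise rare in the cortex. Six3 (2.06) and Zic2 (0.54), factors of the ventral and medial forebrain, completed the amygdala side with Nr2f2, though Zic2 was not called without the 3 cortex libraries (0.49, adjusted p = 0.175). On the cortex side stood Meis2, a factor of striatal and olfactory interneuron precursors, at 62.8 ± 7.66 CPM in the amygdala and 128 ± 11.6 CPM in the cortex (-1.03 ± 0.11), Zfhx4 (-2.06), Pbx3 (-1.01), Tshz1 (-0.99), and Sp8 (-3.19), a factor of olfactory bulb interneurons.

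Genes known from amygdala nuclei leaned towards the amygdala. Of 21 tested, 10 were higher there and 3 in the cortex, the latter being Meis2, Tshz1 and Foxp2 (-0.50, adjusted p = 0.119 without the 3 cortex libraries), and the median was 0.26 (0.73 without the 3 cortex libraries). Wfs1, the endoplasmic reticulum protein wolframin that marks neurons of the central nucleus, stood at 298 ± 63.8 CPM in the amygdala and 162 ± 38.9 CPM in the cortex (0.88 ± 0.18). Dlk1, an imprinted ligand of the Notch family, measured 9.55, 16.98, 10.9, 7.79 and 9.49 CPM against 1.35, 3.55, 2.20, 3.69 and 4.26 CPM (1.86 ± 0.31). Amygdala 14 was highest, and no cortex library reached the lowest amygdala library. The vesicular glutamate transporter gene Slc17a6, typical of subcortical glutamatergic neurons (0.57), and the cadherin gene Cdh9 (0.79) were also higher in the amygdala. Members that did not pass included the stress peptide gene Crh (-0.01) and the opioid receptor gene Oprm1 (-0.28).

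Cortical layer markers did not form a uniform block. Of 30 tested, 11 were higher in the cortex and 5 in the amygdala (median -0.05). Beside Syt6, the cortex side held Kcnh5, a potassium channel of the ether-a-go-go family, at 1.55, 4.72, 2.68, 0.839 and 2.36 CPM in the amygdala and 26.6, 29.8, 11.7, 43.4 and 16.4 CPM in the cortex (-3.40 ± 0.44). Cortex 15 was highest and cortex 14 lowest, above all amygdala libraries. The amygdala side held Calb1, the calcium buffer calbindin, at 99.9 ± 6.90 CPM in the amygdala and 42.5 ± 6.47 CPM in the cortex (1.23 ± 0.12), Crym, a thyroid hormone binding protein of deep layer neurons (1.21), and the phosphoglycoprotein gene Parm1 (0.63). Genes that mark hippocampal fields were called higher in the amygdala in 6 of 13 cases and in the cortex in 2. C1ql2, a synaptic C1q-like protein of granule cells, measured 23.5, 15.1, 16.9, 14.1 and 13.9 CPM in the amygdala and 4.26, 2.11, 2.58, 1.04 and 4.34 CPM in the cortex (2.54 ± 0.31). Prox1, the defining factor of dentate granule cells, did not pass at -0.38. Of 8 claustrum and endopiriform genes 3 were higher in the amygdala and 1 in the cortex, and of 11 thalamic genes 3 and 2.

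Markers of structures that border the anterior cortex were higher in the cortex libraries. Of 21 genes of striatal spiny neurons 11 were higher in the cortex and 1 in the amygdala, with a median of -0.63. Adora2a measured 12.2, 8.49, 6.71, 4.13 and 6.99 CPM in the amygdala and 21.9, 27.9, 19.96, 23.9 and 17.5 CPM in the cortex, with no overlap. Drd2 measured 9.92, 7.31, 2.28, 2.40 and 3.35 CPM in the amygdala and 9.87, 15.6, 10.8, 17.05 and 9.84 CPM in the cortex, where amygdala 11 reached the 2 lowest cortex libraries. The signalling genes Rgs9 (-1.16) and Gng7 (-0.76) followed the same direction, and the exception was Rxrg, a retinoid receptor, at 1.37 ± 0.14. Without the 3 cortex libraries 6 of the striatal genes were called higher in the cortex and the median was -0.38; Drd2 (-1.04, adjusted p = 0.224) was no longer called. The mean log2 CPM of this list was 4.65, 4.48, 4.32, 4.25 and 4.35 in the amygdala libraries and 5.05, 5.01, 4.83, 5.10 and 4.47 in the cortex libraries, with cortex 33 inside the amygdala range.

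Of 13 genes of the olfactory bulb and of migrating neuroblasts 9 were higher in the cortex and 1, Barhl2, in the amygdala. The list's median was -1.19, and -1.74 without the 3 libraries. Eomes, a factor of mitral and tufted cells, measured 0.148, 0.369, 0, 0 and 0 CPM in the amygdala, with no count in 3 libraries, and 2.61, 3.47, 5.30, 2.37 and 3.69 CPM in the cortex (-5.03 ± 0.69). Sp8 measured 0.444, 1.92, 0.738, 0.719 and 0.785 CPM in the amygdala and 6.96, 12.8, 8.72, 4.07 and 9.43 CPM in the cortex (-3.19 ± 0.40). Both genes were present in all 5 cortex libraries and rare in the amygdala. Th, the dopamine synthesis enzyme of periglomerular and midbrain neurons, measured 1.04, 1.48, 1.41, 2.04 and 1.64 CPM in the amygdala and 3.29, 2.62, 14.3, 1.89 and 7.62 CPM in the cortex (-1.97 ± 0.51), and cortex 14 and 33 stood well above the others. Doublecortin, Dcx, of migrating neurons was higher in the cortex as well (-1.07). For the 11 genes of basal forebrain cholinergic neurons the counts were 4 in the cortex and 1 in the amygdala. The acetylcholine synthesis gene Chat measured 0.666, 0.295, 0.738, 0.24 and 0.5 CPM in the amygdala and 1.55, 1.69, 2.39, 1.99 and 3.36 CPM in the cortex (-2.16 ± 0.40), the LIM factor Isl1 had -2.75 and the vesicular transporter gene Slc18a3 -1.89. How far striatal or olfactory tissue in the cortex samples takes part in these values was not tested.

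Neuropeptide genes and their receptors are a hallmark of the amygdala nuclei, and several were higher there. Of 33 peptide and granule genes 8 were higher in the amygdala, against 6.11% of all genes, and 1, the thyrotropin-releasing hormone gene Trh (-1.78), in the cortex; the median was 0.35. Without the 3 cortex libraries 2 were called higher in the amygdala and 2 in the cortex, and the median was 0.15. Pnoc, the precursor of nociceptin, measured 8.74, 7.68, 5.50, 5.99 and 6.28 CPM in the amygdala and 2.90, 1.10, 3.29, 1.14 and 3.03 CPM in the cortex (1.56 ± 0.32). Scg2, a granin of dense core vesicles, stood at 141 ± 19.5 CPM and 87.3 ± 8.26 CPM (0.69 ± 0.11). These are the 2 genes still called higher in the amygdala without the 3 libraries. Tac3 measured 6.44, 5.68, 10.3, 6.35 and 6.92 CPM in the amygdala and 2.32, 0.845, 5.10, 1.52 and 2.05 CPM in the cortex, where cortex 14 came near the amygdala libraries (0.98, adjusted p = 0.116, without the 3). Nts, the neurotensin gene, was low in both regions (1.35 ± 0.42; 0.89, adjusted p = 0.261, without the 3). Avp, the vasopressin gene, had the largest fold change of the list (4.33 ± 1.28, adjusted p = 0.0369) on very uneven values of 1.999, 0.221, 5.83, 40.3 and 0.785 CPM in the amygdala and 0.29, 0, 0.711, 0 and 1.31 CPM in the cortex. Amygdala 33 stood far above the rest, amygdala 14 lay within the cortex range, and without the 3 cortex libraries Avp was not called (3.32, adjusted p = 0.267). In amygdala 33 the oxytocin gene Oxt, below the count filter, also had 409 counts, against 1 to 39 in the other amygdala libraries and 14 over the cortex group. The somatostatin gene Sst, at 79.1 ± 23.4 CPM and 28.9 ± 26.6 CPM, did not pass (1.44 ± 0.48).

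Of 42 receptor genes 9 were higher in the amygdala and 4 in the cortex, against 6.11% and 10.2% of all genes, with a median of 0.21. Npy2r, the presynaptic receptor of neuropeptide Y, measured 4.44, 5.17, 8.11, 5.51 and 4.85 CPM in the amygdala and 0.58, 0.761, 0.581, 0.189 and 0.656 CPM in the cortex (3.31 ± 0.34, adjusted p = 6.11e-05). Trhr, the receptor of thyrotropin-releasing hormone, measured 8.37, 11.5, 13.9, 14.9 and 11.8 CPM in the amygdala and 2.81, 2.96, 1.10, 1.33 and 1.31 CPM in the cortex (2.68 ± 0.30, adjusted p = 0.000145). In both genes the regions were clearly apart, and Trhr lay opposite to Trh, the gene of its ligand. The orexin receptor gene Hcrtr1 measured 4.15, 5.39, 5.16, 4.43 and 3.64 CPM in the amygdala and 0.871, 1.52, 1.29, 1.14 and 1.97 CPM in the cortex (1.73 ± 0.27). Oxtr, the oxytocin receptor gene, measured 1.999, 1.70, 1.81, 3.12 and 1.21 CPM in the amygdala and 1.06, 0.845, 0.258, 1.04 and 0.246 CPM in the cortex (1.54 ± 0.46, adjusted p = 0.0397); cortex 14 and 33 were lowest, and the fold change without the other 3 was 2.93. The melanin-concentrating hormone receptor gene Mchr1 (0.75), the somatostatin receptor gene Sstr1 (0.73), the relaxin-3 receptor gene Rxfp3 (1.39), Crhr2, a urocortin receptor gene (1.28), and the kisspeptin receptor gene Kiss1r (1.14) were higher in the amygdala, of which Crhr2 (0.90, adjusted p = 0.138) and Kiss1r (0.80, adjusted p = 0.141) lost their call without the 3 cortex libraries. Higher in the cortex were the relaxin receptor gene Rxfp1 (-1.46), the receptor gene Vipr2 of vasoactive intestinal peptide (-1.32), the opioid receptor gene Oprd1 (-1.31) and Crhr1, the main receptor of corticotropin-releasing hormone (-0.60), the last 2 not called without the 3 libraries (-0.33, adjusted p = 0.512, and -0.50, adjusted p = 0.216).

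**Figure D2:**
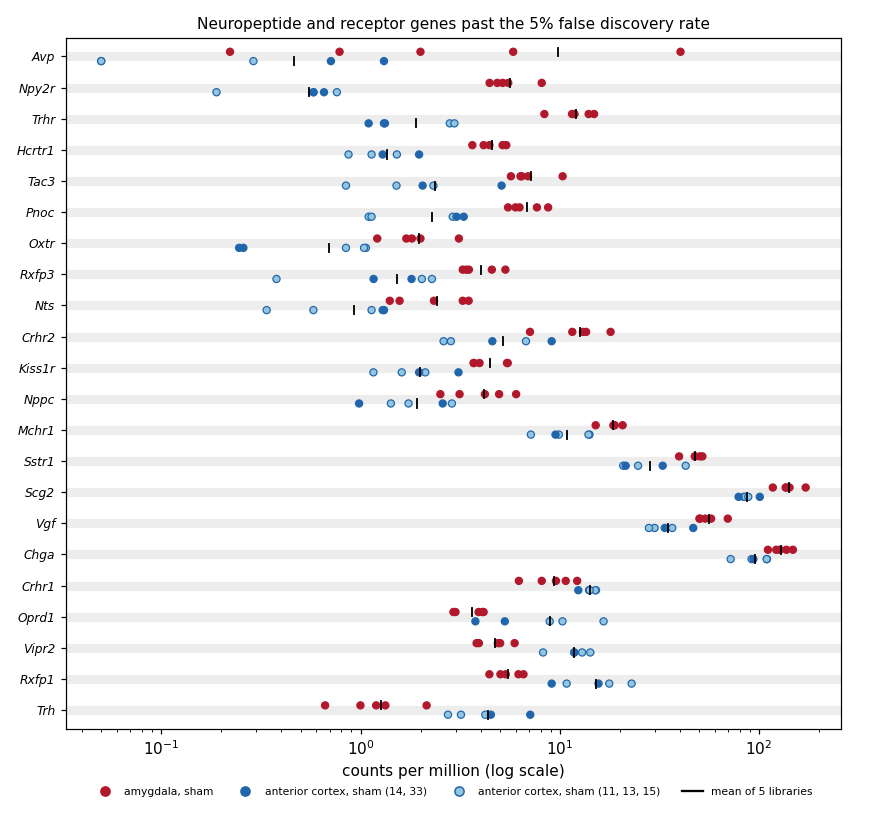
CPM on a log axis in each sham library for the 22 neuropeptide and receptor genes past an adjusted p of 0.05, ordered by fold change, with ticks at the mean of 5 libraries; a library with no count is drawn at the left edge. Npy2r, Trhr and Hcrtr1 show separate groups, the amygdala values of Avp run from 0.221 to 40.3, and the 5 genes at the bottom, from Crhr1 to Trh, are higher in the cortex.

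Genes of steroid, retinoid and thyroid hormone signalling were called in both directions, 10 of 28 higher in the amygdala and 4 in the cortex (median 0.16). Without the 3 cortex libraries 7 were called higher in the amygdala and 0 in the cortex, and the median was 0.29. Esr1, oestrogen receptor alpha, measured 3.04, 3.54, 4.09, 2.70 and 3.57 CPM in the amygdala and 0.387, 2.71, 1.23, 1.04 and 1.07 CPM in the cortex (1.38 ± 0.40, adjusted p = 0.0326), with cortex 13 just above the lowest amygdala library. Cyp19a1, the aromatase that makes oestradiol, measured 2.81, 2.36, 1.21, 3.41 and 1.78 CPM in the amygdala and 0.967, 0.0845, 0.775, 0 and 0.574 CPM in the cortex (2.23 ± 0.61, adjusted p = 0.0265), without overlap at these low levels. Dio3, the enzyme that inactivates thyroid hormone, measured 4.74, 6.35, 4.63, 5.45 and 5.14 CPM in the amygdala and 1.35, 0.169, 0.775, 1.80 and 0.902 CPM in the cortex (2.41 ± 0.40, adjusted p = 0.00202). The retinoid genes Rxrg (1.37 ± 0.14), Rbp4 for retinol binding protein (1.44 ± 0.19) and Aldh1a2 for the retinoic acid synthesis enzyme (1.41 ± 0.19) were higher in the amygdala, and the receptor gene Rarb was higher in the cortex (-0.73 ± 0.17). Aldh1a2 is also a meningeal gene, and its amygdala values of 36.6, 40.1, 23.6, 55.3 and 32.5 CPM had the same highest and lowest library, 33 and 15, as those of the meningeal growth factor gene Igf2, 175, 188, 136, 255 and 141 CPM. The part of meninges in the Aldh1a2 value was not tested. The cortex calls Rora (-0.35, adjusted p = 0.542), Rorb (-0.57, adjusted p = 0.132), the progesterone receptor gene Pgr (-0.34, adjusted p = 0.347) and Rarb (-0.42, adjusted p = 0.19) were not called without the 3 cortex libraries.

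Genes of transmitter synthesis and transport were called in both directions. Of 23 tested 3 were higher in the amygdala, namely Slc6a5, Slc17a6 and the synaptic zinc transporter gene Slc30a3 (0.62), and 6 in the cortex. Gad1, the main enzyme of GABA synthesis, stood at 169 ± 24.5 CPM in the amygdala and 278 ± 42.05 CPM in the cortex (-0.71 ± 0.13), while its partner Gad2 (-0.27 ± 0.14) and the vesicular GABA transporter gene Slc32a1 (0.04 ± 0.17) did not pass. Slc1a2, the main glutamate transporter of astrocytes, was called higher in the cortex on values of 1241, 746, 391, 1426 and 623 CPM against 286, 393, 312, 475 and 419 CPM in the amygdala (-1.23 ± 0.30). The high values were those of cortex 11, 13 and 15, cortex 14 lay inside the amygdala range, and without the 3 libraries the fold change was -0.43 (adjusted p = 0.234).

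Of 36 glutamate receptor genes and auxiliary subunits 6 were higher in the amygdala and 6 in the cortex. The metabotropic receptor genes Grm3 and Grm4, both coupled to inhibition of adenylate cyclase, had fold changes of -1.64 ± 0.25 and -1.64 ± 0.20. Grm3 measured 230.1, 145, 96.9, 261 and 121 CPM in the cortex against 49.5, 57.6, 55.6, 41.04 and 69.2 CPM in the amygdala, with cortex 15 and 11 highest, and kept its call without the 3 libraries at -0.99. The AMPA receptor partners Cacng8 (0.65 ± 0.11) and Shisa6 (1.09 ± 0.30) and the kainate receptor genes Grik1 (0.51 ± 0.12) and Grik2 (0.48 ± 0.10) were higher in the amygdala. None of the AMPA receptor subunit genes Gria1 (0.27), Gria2 (-0.02), Gria3 (-0.29) and Gria4 (0.18) passed the test over all 10 libraries; without the 3 cortex libraries Gria1 was higher in the amygdala (0.94, adjusted p = 0.00166). Among 20 GABA and glycine receptor genes 3 were higher in the amygdala, the subunit genes Gabra5 (0.60 ± 0.14), Gabre (2.76 ± 0.54) and the glycine receptor gene Glra2 (1.23 ± 0.22). Gabrb2 and Gabrg3 were called higher in the cortex (-0.92 and -1.05); without the 3 libraries they measured -0.19 (adjusted p = 0.588) and -0.47 (adjusted p = 0.287). On the amygdala side Gabra5 (0.55, adjusted p = 0.0522) and Shisa6 (1.15, adjusted p = 0.0994) lost their call there with fold changes close to those over all 10 libraries.

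Receptors of serotonin, noradrenaline, histamine, dopamine and acetylcholine were called in both directions. Of 36 tested 8 were higher in the amygdala and 9 in the cortex. Htr2c, a Gq-coupled serotonin receptor also abundant in choroid plexus, measured 91.3, 91.2, 118, 97.5 and 109 CPM in the amygdala and 31.6, 41.3, 39.1, 51.5 and 35.1 CPM in the cortex (1.35 ± 0.14, adjusted p = 5.93e-05). The part of choroid plexus in this value was not tested. The serotonin receptor genes Htr3a (1.22 ± 0.21) and Htr5b (2.55 ± 0.64), the adrenergic receptor gene Adra2a (0.95 ± 0.18) and the nicotinic subunit gene Chrna7 (0.89 ± 0.16) were higher in the amygdala too. Chrm5, a muscarinic receptor gene, measured 2.96, 5.24, 5.83, 4.97 and 3.78 CPM in the amygdala and 0.29, 1.01, 0.581, 1.99 and 0.492 CPM in the cortex (2.39 ± 0.44), whereas its relative Chrm2 measured 1.85, 2.21, 3.55, 1.14 and 2.43 CPM in the amygdala and 6.38, 10.7, 7.11, 14.02 and 6.97 CPM in the cortex (-2.01 ± 0.32). The 2 muscarinic receptors thus lay on opposite sides, each without overlap. All 3 tested genes of alpha-1 adrenergic receptors, Adra1a (-1.47 ± 0.29), Adra1b (-0.81 ± 0.19) and Adra1d (-0.76 ± 0.21), were higher in the cortex, as were the serotonin receptor genes Htr1f (-1.39), Htr2a (-0.89) and Htr6 (-1.02). Of these 6, Adra1b, Htr1f and Htr2a were still called without the 3 cortex libraries, and Htr5b was not (2.06, adjusted p = 0.0645).

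Potassium channel genes lay mostly on the cortex side: 21 of 61 were higher in the cortex and 3 in the amygdala, with a median of -0.34. Without the 3 cortex libraries 13 and 5 were called, and the median was -0.22. Kcns1, a silent subunit that modifies Kv2 channels, measured 5.55, 3.17, 3.89, 1.56 and 5.14 CPM in the amygdala and 16.5, 23.9, 19.5, 16.7 and 14.2 CPM in the cortex (-2.24 ± 0.29). Hcn2, a pacemaker channel gene, stood at 130.2, 124, 126, 128 and 132 CPM in the amygdala, a narrow range, and 297, 259, 219, 314 and 249.7 CPM in the cortex (-1.06 ± 0.11). Kcnj10, the inward rectifier of astrocytes and oligodendrocytes, had -1.24 ± 0.15 and Kcnh7, an erg channel gene, -2.45 ± 0.33. The 3 genes higher in the amygdala were Kcnc4 (0.38 ± 0.09, and 0.35 with an adjusted p of 0.0565 without the 3 libraries) and the modifier subunits Kcng1 (1.24 ± 0.25) and Kcng2 (0.83 ± 0.17). Among 27 sodium and calcium channel genes 6 were higher in the cortex and 3 in the amygdala. Beside Scn4b, the cortex side held Scn1a, the sodium channel of fast-spiking interneurons (-1.37 ± 0.20), and the low-threshold calcium channel gene Cacna1i (-1.33 ± 0.21).

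Adhesion and guidance genes were called in both directions. Of 69 axon guidance genes 10 were higher in the amygdala and 18 in the cortex (median -0.22); without the 3 cortex libraries the counts were 17 and 6 and the median 0.09, so the balance of this list turned with them. Efnb3, a ligand of Eph receptors that repels crossing axons, measured 157, 164, 161, 152 and 161 CPM in the amygdala and 50.7, 65.9, 60.8, 73.7 and 48.5 CPM in the cortex (1.41 ± 0.12). The netrin receptor gene Unc5a measured 169, 185, 191, 173 and 174 CPM in the amygdala and 95.8, 93.5, 92.7, 91.02 and 78.4 CPM in the cortex (0.98 ± 0.09). Both were tight within the amygdala. The semaphorin receptor gene Nrp2 (0.94 ± 0.13) and the synaptic adhesion gene LRRTM1 (0.97 ± 0.12) were higher in the amygdala as well. On the cortex side Robo3 measured 3.55, 3.32, 2.75, 3.12 and 3.71 CPM in the amygdala and 14.6, 21.6, 34.2, 17.8 and 23.8 CPM in the cortex, Sema7a had 56.7 ± 5.30 CPM and 151 ± 11.6 CPM, and the Eph receptor genes Ephb1 (-1.12 ± 0.18) and Ephb6 (-1.22 ± 0.19) were higher as well. Of 27 cadherin genes 3 were higher in the amygdala, among them the activity-related protocadherin gene Pcdh8 (1.04 ± 0.12), and 7 in the cortex, among them Cdh6 at 6.59, 6.13, 6.91, 5.99 and 5.85 CPM in the amygdala and 27.96, 26.04, 20.5, 39.5 and 15.2 CPM in the cortex (-2.03 ± 0.22). Of 35 genes of Wnt, BMP and FGF signals 8 were higher in the amygdala and 6 in the cortex. Wnt4 stood at 36.5 ± 4.43 CPM in the amygdala and 14.5 ± 2.55 CPM in the cortex (1.33 ± 0.14) and Bmp3 at 36.8 ± 5.78 CPM and 15.1 ± 5.90 CPM (1.29 ± 0.23). The activin subunit gene Inhba measured 1.18, 0.738, 1.41, 1.02 and 1.07 CPM in the amygdala and 10.4, 6.76, 4.13, 10.6 and 3.28 CPM in the cortex (-2.68 ± 0.37), and the BMP antagonist gene Chrdl1 was higher in the cortex too (-1.27 ± 0.17).

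Of the 36 lists, that of myelin genes had the largest share of members called in 1 direction. Of 22 genes of mature oligodendrocytes 19 were higher in the anterior cortex and 0 in the amygdala, with a median of -0.84; without the 3 cortex libraries 21 were called and the median was -1.01. Mbp, myelin basic protein, measured 2154, 2238, 1906, 2236 and 2553 CPM in the amygdala and 5182, 4385, 5397, 2914 and 7158 CPM in the cortex (-1.18 ± 0.20, adjusted p = 0.00206). Cortex 33 was highest and cortex 15 lowest, and none reached down to the amygdala. Mobp, a myelin-associated basic protein, measured 267, 286, 257, 305 and 305 CPM in the amygdala and 891, 718, 583, 543 and 845 CPM in the cortex (-1.33 ± 0.14, adjusted p = 0.000104). Ermn, the cytoskeletal protein ermin of late oligodendrocytes, had the largest fold change of the list (-1.56 ± 0.15), and the adhesion protein gene Mag (-1.03 ± 0.15), the enzyme gene Cnp (-0.84 ± 0.11), the oligodendrocyte membrane protein gene Opalin (-0.90 ± 0.19) and the myelin regulator gene Myrf (-0.88 ± 0.11) followed. The lineage factor Sox10 had the smallest called difference (-0.38 ± 0.12, adjusted p = 0.0496), and Aspa (-0.22), Ndrg1 (-0.39) and Hapln2 (-0.72) did not pass, the last 2 being called without the 3 libraries (-0.55, adjusted p = 0.0159, and -1.47, adjusted p = 0.000411). The list's mean log2 CPM was 6.21, 6.27, 6.16, 6.13 and 6.43 in the amygdala and 7.13, 6.97, 7.13, 6.65 and 7.37 in the cortex. Of 12 precursor genes 2 were higher in the cortex, Enpp6 (-1.09 ± 0.32) and Vcan (-0.51 ± 0.11), neither of them called without the 3 libraries (-0.72, adjusted p = 0.187, and -0.48, adjusted p = 0.0551), and the precursor receptor gene Pdgfra stood at -0.06 ± 0.13.

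Since the myelin genes moved together, their promoters are shown. Windows of 250 bases before the gene start were taken from RefSeq on build GRCr8, and 15 of the 22 genes had an entry. The letters ACAAAG or, on the other strand, CTTTGT, the core of the motif known for SOX factors, occurred before 7 of these 15 genes, or 46.7%. Over all 27457 genes with a window the share was 17.2%. In the list of ependyma and motile cilia, higher in the amygdala, the same letters occurred before 4 of 15 genes, or 26.7%. The motif was chosen after the expression values had been seen, 5 letter strings were searched in 2 lists, and a match is a description, not a binding site. The 3 windows below are those of Mobp, Mag and Opalin, on the strand of the gene, with the matched letters in capitals; Mobp held 8 matches, Mag 1 and Opalin 2.
Mobp chr8:128746982-128747231, plus strand: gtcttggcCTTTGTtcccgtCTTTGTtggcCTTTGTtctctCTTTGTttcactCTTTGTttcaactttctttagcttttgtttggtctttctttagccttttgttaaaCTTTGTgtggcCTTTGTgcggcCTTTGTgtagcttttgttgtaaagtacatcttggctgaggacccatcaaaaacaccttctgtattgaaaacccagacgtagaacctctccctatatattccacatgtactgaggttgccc
Mag chr1:95291045-95291294, minus strand: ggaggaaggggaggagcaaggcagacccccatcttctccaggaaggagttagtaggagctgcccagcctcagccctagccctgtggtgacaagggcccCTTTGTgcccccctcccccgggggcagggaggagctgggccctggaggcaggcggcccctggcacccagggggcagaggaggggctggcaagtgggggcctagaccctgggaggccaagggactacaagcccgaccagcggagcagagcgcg
Opalin chr1:249858191-249858440, minus strand: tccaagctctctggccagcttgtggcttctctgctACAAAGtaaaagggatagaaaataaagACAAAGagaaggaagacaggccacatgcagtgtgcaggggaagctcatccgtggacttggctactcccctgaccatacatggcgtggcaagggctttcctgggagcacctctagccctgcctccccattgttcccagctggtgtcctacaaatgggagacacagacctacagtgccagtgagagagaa

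Other glial lists showed few calls. Of 22 astrocyte genes 1 was higher in the amygdala, the angiotensinogen gene Agt at 400.0, 409, 350.1, 473 and 366 CPM in the amygdala and 191, 175, 169.7, 173 and 280.3 CPM in the cortex (1.01 ± 0.15), and 2 were higher in the cortex, Slc1a2 and Chrdl1. Cortex 33 was the highest cortex library for Agt and still below the amygdala. The astrocyte filament gene Gfap (0.24 ± 0.13) and the water channel gene Aqp4 (0.12 ± 0.14) did not pass. Of 18 microglial genes 1, the purinergic receptor gene P2ry13 (-0.73 ± 0.17), was higher in the cortex, though not without the 3 libraries (-0.54, adjusted p = 0.0886), and of 19 endothelial and mural genes 4 were, among them the channel subunit gene Abcc9 of pericytes (-1.11 ± 0.16) and the VEGF receptor gene Flt1 (-0.94 ± 0.18).

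Genes of tissues that line the brain were higher in the amygdala libraries. Of 22 genes of meningeal fibroblasts 15 were higher in the amygdala and 0 in the cortex (median 0.89). Igf2 measured 175, 188, 136, 255 and 141 CPM in the amygdala and 85.4, 52.8, 67.9, 57.96 and 76.2 CPM in the cortex (1.39 ± 0.18), and Ptgds, the prostaglandin D synthase of leptomeninges and oligodendrocytes, measured 1423, 1008, 847, 1726 and 1026 CPM and 330.2, 241, 681, 73.5 and 648 CPM (1.61 ± 0.45). Both were highest in amygdala 33. The collagen genes Col1a1 (0.80 ± 0.18) and Col1a2 (1.05 ± 0.24) and the matrix proteoglycan gene Dcn (1.13 ± 0.25) were higher in the amygdala, while Col3a1 (0.16 ± 0.17) did not pass and Col1a1 was not called without the 3 cortex libraries (0.72, adjusted p = 0.0897). Of 13 choroid plexus genes 9 were higher in the amygdala, with a median of 2.27. Ttr, transthyretin, the most abundant secreted protein of the choroid plexus, measured 324, 3.62, 190.1, 240.1 and 332 CPM in the amygdala and 0.967, 0, 1.03, 0 and 16.1 CPM in the cortex (5.90 ± 1.2, adjusted p = 0.00628). Amygdala 14 lay far below the other 4 amygdala libraries and below cortex 33, and without cortex 11, 13 and 15 Ttr was not called (4.75, adjusted p = 0.0515). The chloride channel gene Clic6 (3.88 ± 0.67) and the folate receptor gene Folr1 (4.03 ± 0.78) showed the same pattern of a low amygdala 14. The mean log2 CPM of the choroid plexus list was 3.74, 1.17, 3.31, 2.97 and 4.13 in the amygdala and 0.69, 0.59, 0.70, 0.08 and 1.47 in the cortex.

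Of 17 genes of ependyma and motile cilia 8 were higher in the amygdala and 0 in the cortex, with a median of 1.54. Dnah9, a dynein heavy chain of cilia, measured 57.97, 46.7, 81.3, 76.7 and 67.7 CPM in the amygdala and 13.3, 14.9, 17.7, 35.3 and 15.9 CPM in the cortex (1.77 ± 0.25), where cortex 15 was the highest. The ciliary genes Cfap43 (1.72 ± 0.35), Cfap65 (1.54 ± 0.29) and Rsph1 (1.54 ± 0.28) were higher in the amygdala too, and amygdala 14 and 11 had the lowest ciliary scores of the amygdala libraries (2.31, 2.31, 2.64, 2.90 and 2.67 in the amygdala, 0.94, 1.21, 1.04, 1.31 and 1.99 in the cortex). Hypothalamic genes, from the region next to the amygdala, were called higher in the amygdala in 3 of 9 cases and in the cortex in 1, Trh. The amygdala calls were Avp, the imprinted gene Magel2 at 15.7, 16.2, 14.3, 14.6 and 11.6 CPM in the amygdala and 2.03, 2.87, 6.59, 3.03 and 6.39 CPM in the cortex (1.77 ± 0.29), and Baiap3, a regulator of dense core vesicles, at 111, 129, 105, 98.2 and 99.3 CPM and 21.2, 29.4, 32.2, 19.3 and 41.1 CPM (1.92 ± 0.19). The last 2 did not overlap between regions and kept their call without the 3 cortex libraries. The part of ventricle lining, meninges or hypothalamus in the amygdala samples was not tested for any of the genes above.

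**Figure D3:**
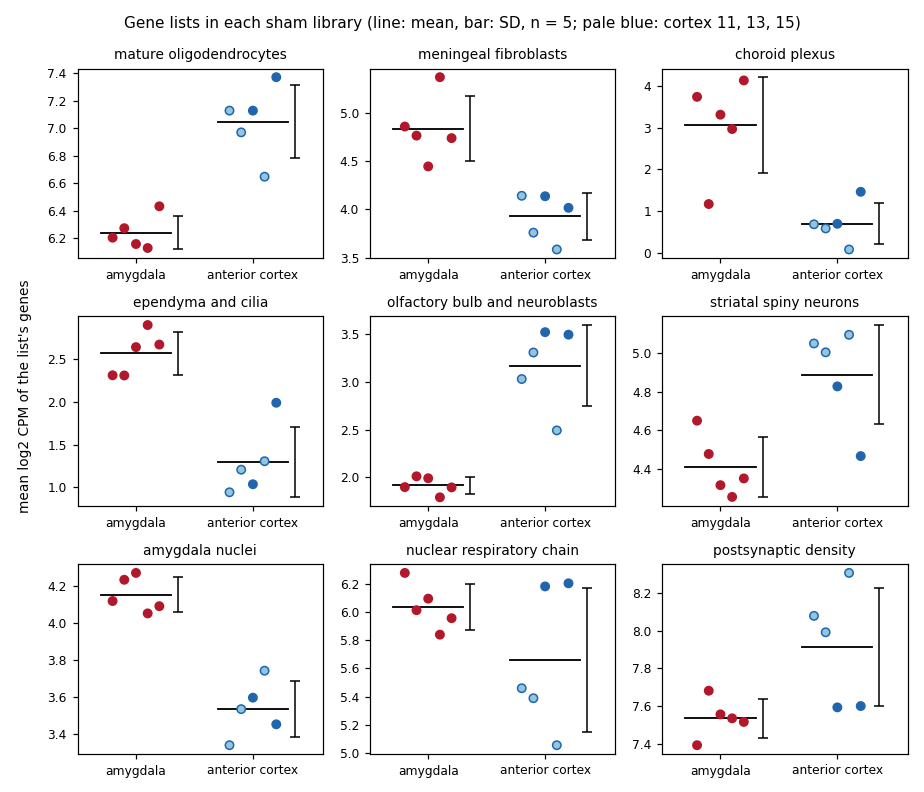
Mean log2 CPM of the genes of 9 lists in each sham library, 1 point per library, with the mean as a line and the SD as a bar (n = 5 per region); pale points are cortex 11, 13 and 15. Myelin and olfactory scores are higher in all 5 cortex libraries, meningeal, ciliary and amygdala scores in all 5 amygdala libraries, and in the respiratory chain and postsynaptic panels cortex 14 and 33 lie apart from the other 3 cortex libraries.

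Interneuron genes were called in 2 of 28 cases for the amygdala and 6 for the cortex, against 6.11% and 10.2% of all genes. Pvalb, parvalbumin of fast-spiking cells, measured 15.8, 12.8, 13.8, 13.3 and 14.99 CPM in the amygdala and 18.7, 17.2, 31.7, 18.8 and 30.005 CPM in the cortex (-0.72 ± 0.19), with cortex 14 and 33 highest, and Lamp5, of neurogliaform cells, stood at 36.5 ± 7.48 CPM and 76.5 ± 21.6 CPM (-1.07 ± 0.19). Kit, the receptor of stem cell factor, was on the other side at 66.3, 53.8, 96.2, 74.8 and 79.1 CPM in the amygdala and 20.3, 24.9, 24.2, 28.4 and 25.9 CPM in the cortex (1.58 ± 0.15). Vip (0.38 ± 0.28) did not pass. Of 11 genes listed for perineuronal nets 3 were higher in the cortex, Vcan, the core protein gene Acan (-1.05 ± 0.25) and Pvalb. The last is the fast-spiking cell gene given above, counted again here. Neither Acan (-0.70, adjusted p = 0.113) nor Vcan (-0.48, adjusted p = 0.0551) was called without the 3 cortex libraries. Of 31 genes induced by neuronal activity 8 were higher in the cortex and 1, Jun, in the amygdala (0.58 ± 0.09). Arc, a regulator of synaptic AMPA receptors, measured 50.6, 43.7, 41.6, 31.7 and 57.3 CPM in the amygdala and 151, 126, 121, 96.6 and 69.9 CPM in the cortex (-1.33 ± 0.20), without overlap, and Fos stood at -0.63 ± 0.35 and did not pass.

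The remaining lists moved with the 3 cortex libraries. Of 25 genes of the postsynaptic density 12 were called higher in the cortex, with a median of -0.51; without the 3 libraries 1 was called there and 2 in the amygdala, and the median was -0.10. The scaffold gene Shank1 had -0.96 ± 0.24 over all libraries and -0.38 (adjusted p = 0.243) without the 3, and the kinase gene Camk2a -0.50 ± 0.14 and -0.36 (adjusted p = 0.192). Of 40 nuclear genes of the respiratory chain 39 had a positive fold change, 1 of them, Ndufb10 (0.46 ± 0.14, and 0.21 with an adjusted p of 0.273 without the 3 libraries), was called, and the median was 0.33, against -0.09 without the 3 libraries. Their mean log2 CPM was 6.28, 6.01, 6.10, 5.84 and 5.96 in the amygdala and 5.46, 5.39, 6.18, 5.05 and 6.21 in the cortex, with cortex 14 and 33 inside the amygdala range.

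**Figure D4:**
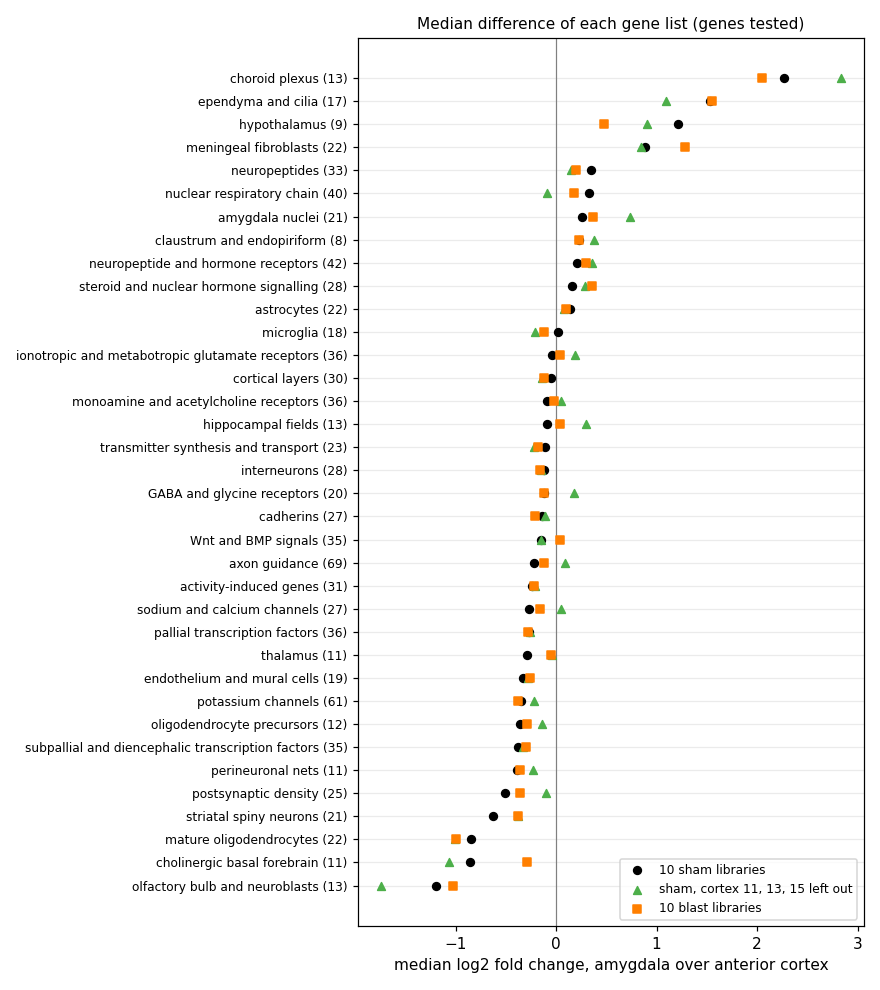
Median log2 fold change of amygdala over anterior cortex for each of the 36 gene lists, with the number of genes tested in brackets: circles for the 10 sham libraries, triangles without cortex 11, 13 and 15, squares for the 10 blast libraries. Choroid plexus (2.27), ependyma (1.54), hypothalamic (1.21) and meningeal lists (0.89) lie farthest towards the amygdala, and olfactory bulb (-1.19), cholinergic (-0.86) and myelin lists (-0.84) farthest towards the cortex in the 10 sham libraries.

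The same contrast was made in the 10 libraries of blast-exposed rats, which had no part in the values above. Of 15237 genes tested there 2601 were called (17.1%), 1080 higher in the amygdala (7.09%) and 1521 in the anterior cortex (9.98%). Of the 919 genes higher in the amygdala of sham rats 914 were tested in blast-exposed rats, 913 had the same direction and 641 were called in it, or 70.1%, which is 59.4% of the blast calls in that direction. Of the 1536 higher in the cortex 1531 were tested, 1528 had the same direction and 1104 were called in it, or 72.1%, which is 72.6% of the blast calls. None was called in the opposite direction. Among the blast libraries cortex 8 held counts for 16577 genes, against 19176 to 20748 in the other cortex libraries. Without cortex 8 the blast contrast called 3653 genes. The rank correlation across genes between gene length and the fold change was -0.209 over the 10 blast libraries. The part of gene length or of single libraries in the shared directions was not tested. The fold change in blast-exposed rats was 2.83 for Nr2f2, 2.70 for Npy2r and 2.76 for Trhr, -2.50 for Stac2, -3.03 for Scn4b and -1.31 for Mobp. Myelin genes were called higher in the cortex in 21 of 22 cases, meningeal genes higher in the amygdala in 16 of 22 and striatal genes higher in the cortex in 9 of 21. Other lists were weaker there. Olfactory genes were called higher in the cortex in 6 of 13 cases (median -1.02, against -1.19 in sham rats). Of 9 cholinergic genes 0 were called higher in the cortex and 1 in the amygdala (median -0.29, against -0.86 in sham rats). The hypothalamic median was 0.47, against 1.21 in sham rats. The calls of sham rats that did not pass in blast-exposed rats included Tac3 (0.61), Six3 (0.40) and Chat (-1.24). They also included Zic1, a forebrain factor (-0.50 in sham rats, 0.08). The same held for Gad1 (-0.69, adjusted p = 0.0759), Slc17a6 (0.35, adjusted p = 0.214) and Slc18a3 (-0.71, adjusted p = 0.478). Further cases were Trh, Slc30a3, Gabre, Gabrg3, Rsph1, P2ry13, Acan and Ndufb10, and these names are not a full list. A difference of the regional contrast between treatments was tested for 15766 genes by the interaction of region and treatment in edgeR, and 0 passed an adjusted p of 0.05; 249 had an unadjusted p under 0.05, and DESeq2 gave 0 and 305.

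**Figure D5:**
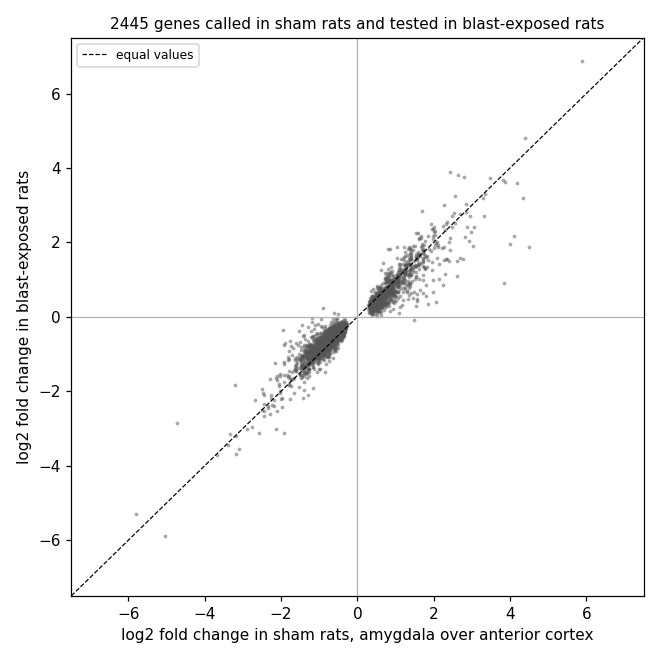
Log2 fold change of amygdala over anterior cortex in sham rats (horizontal) and in blast-exposed rats (vertical), 1 point for each of the 2445 genes called in sham rats and tested in both; the dashed line marks equal values. Nearly all points lie in the lower left and upper right of the plot, 913 of 914 on the amygdala side and 1528 of 1531 on the cortex side.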

How the data were processed

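RNA of the brain regions was extracted with Qiazol and RNeasy columns and made into NEBNext Ultra libraries, per the labels' protocols. The submitters' processing notes name CASAVA. The sources used here do not give the aligner, counting tool, annotation, genome build or use of strand, so overlapping and antisense genes may share reads. The authors deposited 1 table per region with raw read counts per gene and library, per the file headers, whose values were whole numbers, and a gene length in bases (used in 1 alternative only). No column of counts was left without a group.

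The raw counts of both tables were joined by gene identifier. Genes were tested with edgeR 4.0.16 (R 4.3.3; filterByExpr with a minimum count of 10, TMM, two-sided quasi-likelihood F test, 5 against 5 libraries, Benjamini-Hochberg over all genes tested, called under 0.05). Alternatives used DESeq2 1.42.0, limma 3.58.1 (voom), other scalings, filters and samples. The script was tested on simulated data. List scores are means of log2 CPM with a prior count of 2. Comparisons of the 20 pairs of libraries within a region found no duplicates (smallest chi-square per degree of freedom 7.09).

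The comparison and the 36 gene lists (1049 names, 925 tested, 77 below the filter, 7 in 1 table only, 40 not matched) were chosen with earlier results of these data known, and some genes are in several lists. Genes named are the 12 with the smallest p in each direction that have a symbol, a log2 fold change of at least 1 and no overlap between regions, up to 4 called members with the smallest p per list and direction, and the label markers; others are named as values to describe a list and were chosen after their values were seen. Some genes of the lists and label markers are counted but not reported here by name.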

Additional observations from a re-analysis of the deposited data

Results flagged for a closer look

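Within 5 libraries of a region, a library was picked out where its gap to the next library, as a share of the whole range of log2 CPM, exceeded the 5% critical value of Dixon's test (0.71). This was so in 20 of 478 groups of values, and chance alone gives about 5 of 100. In the amygdala, Ttr was 3.62 CPM in library 14 against 190 to 332.0 CPM in the others, Slc9a2 30.7 CPM in library 14 against 44.0 to 46.1 CPM and Hapln2 27.6 CPM in library 14 against 41.8 to 49.2 CPM. Library 14 was high for P2ry13 (8.71 CPM against 6.53 to 7.07). Library 11 was low for Plagl1 (17.2 CPM against 22.1 to 24.3) and Ephb6 (46.9 CPM against 52.5 to 53.3), library 15 high for Grik1 (23.4 CPM against 18.9 to 19.98) and library 33 high for Dcn (32.1 CPM against 15.4 to 19).

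In the cortex, library 15 was low for Bhlhe22 (21.5 CPM), Npy2r (0.189 CPM), Opalin (63.1 CPM) and Rbp4 (8.71 CPM), and high for Dnah9 (35.3 CPM), Igf2r (95.0 CPM) and the mean log2 CPM of GABA and glycine receptor genes (5.65 against 4.8 to 5.05). Library 33 was high for Agt (280.0 CPM) and low for Unc5a (78.4 CPM) and Gria4 (54.8 CPM), and library 14 was low for Camk2a (1970.0 CPM) and Pdgfra (97.7 CPM).

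Genes listed in the table of 1 region only took no part in the comparison. Of the 1458 such genes of the amygdala table, 2 developmental transcription factors reached 30 counts over the 5 sham libraries: Otp, a factor of hypothalamic and medial amygdala neurons, with 78 counts, and Olig3, a factor of dorsal neural progenitors and the thalamus, with 36. None of the 1041 genes of the cortex table alone reached that number.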

How the results depend on the processing

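Against 2455 genes called, testing for a log2 fold change above 1 (glmTreat) left 65 calls and leaving out cortex 11, 13 and 15 left 1491; the first asks for a larger change and the second has fewer samples. Leaving out 1 library gave 1361 to 3906. Apart from the replicate block described next, which gave 453, the other alternatives gave 2184 (no filter on low counts) to 3571 (20 libraries in 1 fit). Among them were 3341 by DESeq2 and 3237 by voom with quality weights. In the blast libraries 2601 became 1775 to 3653 when 1 library was left out and 3386 by DESeq2.

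With the title number as a replicate block 453 genes were called (194 higher in the amygdala, 259 in the cortex), 1862 in the blast libraries and 0 for the interaction. In the sham block fit the unnumbered amygdala library and cortex 13 each formed a block alone, so the regional difference rested on the other 4 pairs. A fit with these libraries in the same block was not made. The sham numbers 11, 14, 15 and 33 and all blast numbers recur in both regions, but no label says that a number is a rat. The numbers were thus not taken to pair the samples. Same-numbered sham libraries had correlations of deviations of -0.16 to 0.219 over 4 pairs, and blast libraries -0.058 to 0.131 over 5 pairs. Of these amygdala libraries 2 of 4 and 3 of 5 correlated best with their own number. So few pairs cannot decide whether same-numbered samples share a rat.

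None of the 203 genes named changed direction with a call in any alternative. The replicate block ended 80 of the 177 calls, leaving out 1 library ended 3 to 30, and leaving out the 3 cortex libraries ended 34 and moved the medians of 18 of the 36 lists by more than the spread between libraries; the cause was not tested. RLE size factors ended 1 call (Sox10) and upper quartile scaling 3 (Crhr1, Sox10, Zic1). Depth limits genes of about 1 CPM, where a library holds fewer than 20 counts.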

Other observations

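Plagl1, Dlk1, Dio3, Magel2 and Igf2, named above, are all imprinted genes, which are transcribed from 1 parental allele in many tissues. A list of 37 imprinted genes was therefore put together after these values had been seen, and it is given as a description with no test. Of 32 of them tested, 15 were higher in the amygdala and 0 in the anterior cortex, with a median log2 fold change of 0.57 beside -0.004 over all genes. Without cortex 11, 13 and 15 the counts were 12 and 1 and the median 0.40, and in the blast libraries 12 and 0 and 0.37. Nnat, neuronatin, a small membrane protein of neurons, measured 654, 653, 609, 697 and 595 CPM in the amygdala and 189, 304, 223, 182 and 266 CPM in the cortex (1.46 ± 0.14, adjusted p = 5.17e-05), with no overlap. The MAGE family gene Ndn, a neighbour of Magel2 in the Prader-Willi region, stood at 165 ± 15.9 CPM in the amygdala and 78.5 ± 24.1 CPM in the cortex (1.07 ± 0.18), and the cell cycle inhibitor gene Cdkn1c at 13.8 ± 2.83 CPM and 6.50 ± 1.14 CPM (1.08 ± 0.19). Other imprinted genes did not pass, among them Peg3 (0.10 ± 0.18), Sgce (0.07 ± 0.16) and Igf2r (-0.05 ± 0.12). Igf2 and Dlk1 also belong to the lists of meningeal fibroblasts and of amygdala nuclei used above. The part of meninges or hypothalamus in these values was not tested.

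The largest fold change towards the cortex belonged to Frmd7, a cytoskeletal protein known from eye movement circuits, at 0.177 CPM in the amygdala and 10.4 CPM in the cortex (-5.79). The largest towards the amygdala was that of Ttr. Both were named after their values had been seen.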
